A study of Mus musculus with 686 samples.

Results

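The 4 mouse miRNAs mmu-miR-219a-5p, mmu-miR-219a-2-3p, mmu-miR-338-3p and mmu-miR-338-5p, written below without the species prefix, were taken by name from the 1964 miRNAs counted in each library. They were followed through 686 small RNA libraries of 13 tissues, of which 25 were brain, 1 from each of 25 mice. All mice were BALB/cAnNTac females aged 3 or 8 months. Flight mice (FL) lived on the International Space Station, habitat ground controls (HGC) lived on Earth in flight hardware at double density with matched temperature, humidity and carbon dioxide, and vivarium ground controls (VGC) lived 4 to a standard cage. Mice of the TERM groups were killed 22 to 24 days after launch, in orbit or on Earth, and their carcasses were frozen whole and later thawed for dissection, with only the spleen taken fresh. Mice of the LAR groups returned alive after 39.5 days on the station, were collected 2 to 4 days after splashdown with their controls, and had their tissues snap frozen. Brain libraries were made from whole hemi-brains, so a level averages over regions and cell types, and fewer cells of a type cannot be told apart from less RNA per cell. Brain LAR held 4 mice per arm, all of 3 months. Brain TERM held 4 FL, 5 HGC and 4 VGC mice, of which 2, 2 and 1 were 8 months old.

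A miRNA gene is transcribed into a hairpin, from which 2 short strands are cut, named 5p and 3p for the arm they come from, and either may be loaded into the silencing complex. miR-219 and miR-338 are known as miRNAs of oligodendrocytes, the cells that wrap axons in myelin. They accumulate as oligodendrocyte precursors stop dividing and mature, and are known to act on transcripts that hold precursors back, among them those of the growth factor receptor gene Pdgfra and the transcription factor genes Sox6 and Hes5.

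The mature sequences are printed here because the strands of 1 hairpin, and the miRNAs read from its opposite strand, are what the results compare. They come from RefSeq on GRCm38.p6, in which 3 of the 4 miRNAs were matched, and seed bases 2 to 8, which pair with targets, are in capitals.
miR-219a-5p: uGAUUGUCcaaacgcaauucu
miR-338-3p: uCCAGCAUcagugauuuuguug
miR-338-5p: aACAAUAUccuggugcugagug
miR-3065-5p: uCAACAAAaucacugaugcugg
miR-219a-1-3p: aGAGUUGCgucuggacgucccg
The 5 seeds differ from each other, and none of the 1679 mature miRNAs of the table shares any of them. miR-219a-5p is made from 2 hairpins, Mir219a-2 at chr2:29845631-29845727 and Mir219a-1 at chr17:34024983-34025092, both on the minus strand. miR-219a-2-3p belongs to the first and miR-219a-1-3p to the second. miR-338-3p (chr11:120014781-120014802) and miR-338-5p (chr11:120014816-120014837) share 1 hairpin on the minus strand, inside the gene span of the kinase gene Aatk and outside its exons. miR-3065-5p is read from the opposite strand of that site, at chr11:120014780-120014801, and covers 21 of the 22 bases of miR-338-3p. The Mir219a-2 hairpin overlaps no annotated gene other than Mir219b on its opposite strand, whereas Mir219a-1 overlaps an exon of the lincRNA Gm26940 on the same strand. The hairpins are shown with the mature strands that the table lists in capitals, which are both arms of Mir219a-1 and Mir338 and the 5p arm alone of Mir219a-2.
Mir219a-2: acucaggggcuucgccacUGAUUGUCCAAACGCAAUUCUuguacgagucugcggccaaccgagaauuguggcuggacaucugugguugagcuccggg
Mir219a-1: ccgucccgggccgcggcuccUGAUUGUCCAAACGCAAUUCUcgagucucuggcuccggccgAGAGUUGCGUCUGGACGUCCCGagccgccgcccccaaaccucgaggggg
Mir338: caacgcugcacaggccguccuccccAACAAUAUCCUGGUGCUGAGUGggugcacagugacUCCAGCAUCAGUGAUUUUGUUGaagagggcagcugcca

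Levels are given as CPM, the counts of a miRNA in each 1000000 miRNA counts (1 M) of its library. Brain libraries held 0.598 to 10.0 M miRNA counts with a median of 6.56 M, and the other 661 held 0.181 to 30.5 M with a median of 3.82 M. Every brain library was closest to the brain profile, with miR-124-3p, a miRNA of neurons, at 52147 to 257657 CPM. Of all libraries, 166 (24.2%) were closest to the profile of a tissue other than their label, and 11 of the 44 sequencing pools held more than 1 in 3 such libraries. 2 brain libraries were sequenced in those pools, VGC LAR mouse 5 and FL TERM mouse 17. Tissue medians below are over all libraries unless stated. Without those closest to another tissue, MAT kept 11 of 57 libraries, the fewest of any tissue.

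Brain was the tissue with the highest median for all 4 miRNAs, a rank that 31.9% of the 1427 tested miRNAs shared. miR-219a-2-3p had a median of 2446 CPM in brain (2675 ± 871, SD, n = 25), which put it at rank 45 among brain miRNAs, and miR-338-3p had a median of 1878 CPM (2155 ± 1404) at rank 53. miR-338-5p had 568 CPM (671 ± 350) at rank 104, and miR-219a-5p had 35.7 CPM (36.9 ± 25.1) at rank 312. Together the 4 made up 0.541% of brain miRNA counts at the median and 0.0218% elsewhere, with ranges of 0.198 to 0.985% and 0.00337 to 0.261%.

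**Figure D1:**
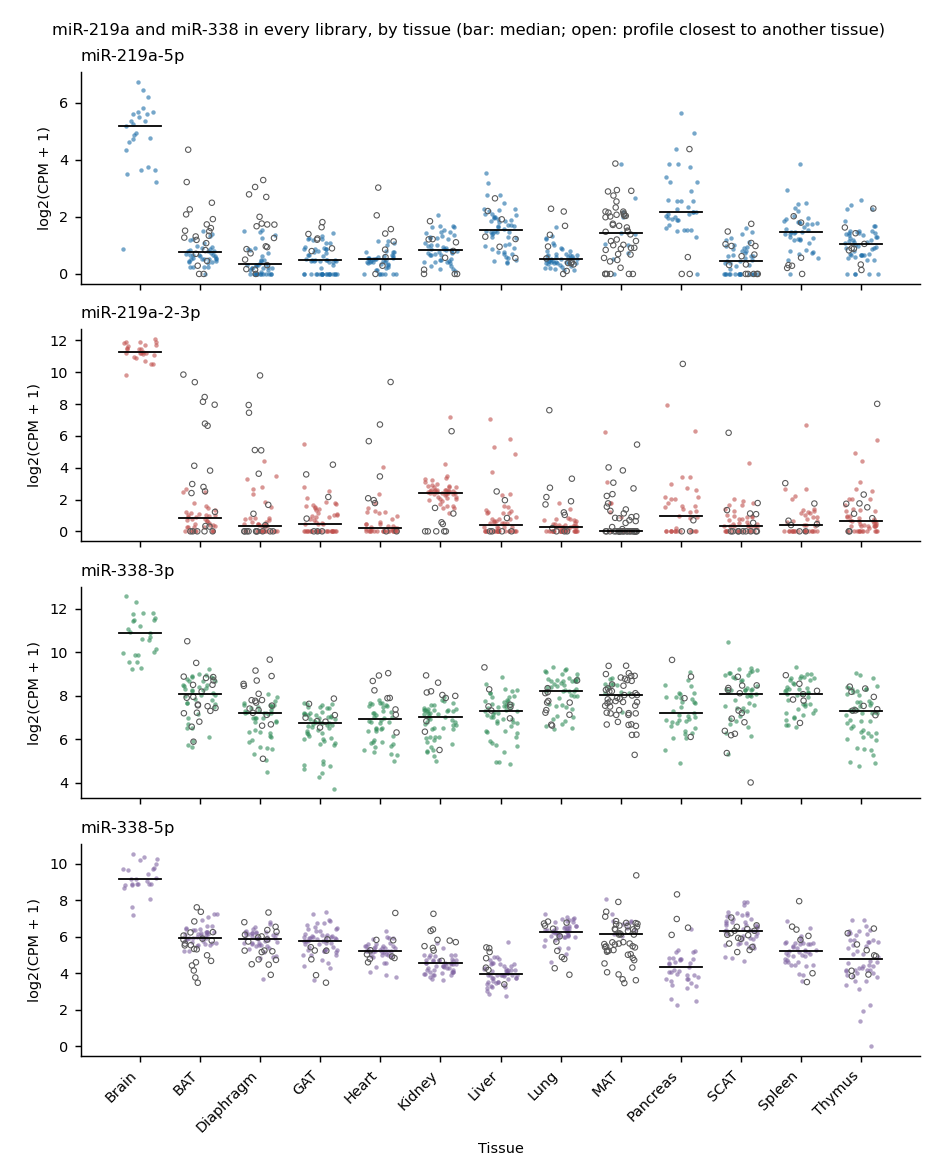
Level of each miRNA as log2(CPM + 1) in every library, by tissue, with a bar at the median and open circles for libraries whose profile was closest to another tissue. Brain has the highest bar in each panel, at a median of 2446 CPM for miR-219a-2-3p and 35.7 CPM for miR-219a-5p, and open circles stand highest among the other tissues in the miR-219a-2-3p panel.

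miR-219a-2-3p was the miRNA with the widest gap, its brain median being 570 times that of the next tissue. That tissue was kidney, with a median of 4.29 CPM (0 to 148, n = 57). Pancreas had 0.945 CPM (0 to 1475, n = 39), BAT 0.816 CPM (0 to 926, n = 60) and thymus 0.568 CPM (0 to 258, n = 58). The medians of the remaining tissues were between 0 and 0.373 CPM, so most of these libraries held no more than a few counts. They were 0.373 CPM in GAT (0 to 43.2, n = 60), 0.317 in liver (0 to 134, n = 58), 0.312 in spleen (0 to 101, n = 47) and 0.287 in diaphragm (0 to 891, n = 59). SCAT had 0.283 CPM (0 to 72.3, n = 58), lung 0.192 (0 to 195, n = 58), heart 0.160 (0 to 669, n = 50) and MAT 0 (0 to 74.3, n = 57). Without libraries closest to another tissue kidney was still next to brain, at 4.69 CPM (n = 47), and MAT moved from the last place to follow pancreas, at 0.861 CPM (n = 11). No count of it was found in 248 (37.5%) of the libraries outside brain. A count of 0 allows up to 3 counts, which was 0.186 to 16.5 CPM over those depths, for counting error only. Kidney also had the highest median outside brain for the summed level of 8 neuronal miRNAs, at 1456 CPM over all libraries. The part of this in its miR-219a-2-3p level was not tested.

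miR-219a-5p, whose brain median was 10.3 times that of the next tissue, had its second highest median in pancreas, at 3.47 CPM (0 to 49.0). Liver had 1.93 CPM (0.318 to 10.7), spleen 1.75 (0 to 13.5), MAT 1.69 (0 to 13.6) and thymus 1.09 (0 to 4.97). The remaining medians were below 1 CPM. They were 0.782 CPM in kidney (0 to 3.18), 0.694 in BAT (0 to 19.5), 0.429 in lung (0 to 3.88) and 0.423 in heart (0 to 7.16). GAT had 0.409 CPM (0 to 2.53), SCAT 0.377 (0 to 2.38) and diaphragm 0.263 (0 to 8.80). The miRNA was at 0 in 86 (13.0%) of the libraries outside brain. It was the only one of the 4 with fractions of a count, in steps of 0.5 and in 312 of the 686 libraries. Its sequence is the same in both hairpins.

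miR-338-3p was found in every library, and its tissues other than brain lay close together. The median was 296 CPM in lung (87.9 to 638), 273 in SCAT (15.2 to 1415), 273 in spleen (93.0 to 629), 271 in BAT (49.2 to 1449) and 260 in MAT (38.0 to 664). Thymus had 159 CPM (26.2 to 524), liver 158 (28.3 to 630), pancreas 148 (28.7 to 800) and diaphragm 148 (21.8 to 807). Kidney had 128 CPM (31.3 to 488), heart 121 (30.7 to 524) and GAT 108 (12.3 to 233). Over all libraries brain was 6.34 times the next tissue, beside the ratio of 570 for miR-219a-2-3p. Without libraries closest to another tissue, the next was MAT with 355 CPM (n = 11), followed by lung with 325 CPM (n = 46).

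For miR-338-5p, cut from the same hairpin, the ratio of brain to the next tissue was 7.17 over all libraries. SCAT had 79.3 CPM (24.1 to 238), lung 76.3 (14.0 to 150), MAT 68.7 (9.94 to 653) and BAT 60.3 (10.1 to 193). Diaphragm had 57.3 CPM (11.7 to 159), GAT 53.5 (10.1 to 163), spleen 36.7 (10.4 to 244) and heart 36.4 (13.0 to 156). Thymus had 26.5 CPM (0 to 120), kidney 22.5 (11.3 to 151), pancreas 19.1 (3.80 to 317) and liver 14.5 (5.82 to 50.4). Here too MAT was next to brain without libraries closest to another tissue, with 106 CPM (n = 11), above SCAT with 84.7 CPM (n = 43). The order of the tissues below brain was not that of its partner strand in either set of libraries, with GAT last for miR-338-3p and liver last for miR-338-5p. Within each of the 4 orders, all 11 pairs of neighbours below brain differed by less than the mean of their SDs.

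The edgeR quasi-likelihood test of brain against the mean of the 12 other tissues called all 4 miRNAs higher in brain. In that comparison 37.8% of the 1427 tested miRNAs were called higher in brain and 73.4% in either direction, so a call alone sets none of the 4 apart. The fitted log2 fold change was 8.66 (SE 0.30, adjusted p = 2.16e-116) for miR-219a-2-3p and 4.57 (SE 0.16, adjusted p = 2.16e-116) for miR-219a-5p. It was 3.58 (SE 0.12, adjusted p = 4.93e-124) for miR-338-5p and 3.13 (SE 0.12, adjusted p = 4.12e-99) for miR-338-3p, and the median of all tested miRNAs was -0.14, or 0.09 without TMM factors. Against single tissues every fold change stayed positive, from 5.56 (pancreas) to 10.64 (spleen) for miR-219a-2-3p and from 2.61 (pancreas) to 5.91 (SCAT) for miR-219a-5p. For miR-338-3p they ran from 2.48 (lung) to 4.38 (GAT) and for miR-338-5p from 2.80 (lung) to 4.63 (pancreas). By medians, kidney rather than pancreas was nearest to brain for miR-219a-2-3p, and 1 pancreas library held 1475 CPM of it. The log2 fold changes without the 166 libraries closest to another tissue were 10.28 (miR-219a-2-3p), 5.03 (miR-219a-5p), 3.87 (miR-338-5p) and 3.43 (miR-338-3p). Several tissues of 1 mouse entered the fit, and with the mouse as a block (limma voom) they were 11.30, 5.01, 3.44 and 3.33 in this order.

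The levels also differed in how far single libraries crossed between brain and the rest. Of the other 661 libraries, 2 exceeded the lowest brain library for miR-219a-2-3p, 13 for miR-338-3p, 24 for miR-338-5p and 320 for miR-219a-5p. For miR-219a-5p the lowest brain library was the shallowest one, VGC TERM mouse 8, with 0.835 CPM from 0.5 counts. Above the second lowest, at 8.38 CPM, were 14 of the 661. Above the second lowest brain library of their own were 1 for miR-219a-2-3p, 11 for miR-338-3p and 8 for miR-338-5p. Among the 495 libraries outside brain whose profile matched their label, 0 exceeded the lowest brain library for miR-219a-2-3p and 6 for miR-338-3p. For miR-338-5p and miR-219a-5p the numbers were 14 and 219. A lowest brain library above every such library was found for 3.50% of the tested miRNAs, or 0.210% when all libraries were counted.

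Counts of miR-219a-2-3p and miR-219a-1-3p were set against those of miR-219a-5p, which both hairpins make, so the choice of strand and the output of each hairpin cannot be told apart. Summed over the brain libraries, miR-219a-2-3p held 71.6 counts for each count of miR-219a-5p. In the other tissues, over libraries with matching profiles, this ratio was 0.418 (lung) to 6.65 (kidney). miR-219a-1-3p, which only the chromosome 17 hairpin makes, showed the opposite order, with 0.0382 counts per count of miR-219a-5p in brain and 0.764 to 4.87 in the other tissues. Its median level was 1.31 CPM in brain and 1.30 to 5.05 CPM elsewhere, highest in pancreas, and it was called lower in brain (log2 fold change -0.88, SE 0.21, adjusted p = 4.28e-05 by edgeR). The products of Mir219b and Mir219c, on the opposite strands, had a median of 0 in every tissue.

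At the mir-338 site the proportion of the arms in brain lay within that of the other tissues, with 3.15 counts of miR-338-3p per count of miR-338-5p in brain and 1.87 (GAT) to 9.88 (liver) elsewhere. The opposite strand was not highest in brain. miR-3065-5p, the antisense of miR-338-3p, had a median of 32.4 CPM in BAT, 28.8 CPM in pancreas and 0 in brain, where 17 of 25 libraries held no count. Summed over brain there were 335016 counts of miR-338-3p and 145 of miR-3065-5p, most of the latter in FL TERM mouse 17, HGC TERM mouse 18 and VGC LAR mouse 5. BAT held 6.36 and pancreas 7.87 counts of miR-338-3p per count of miR-3065-5p. edgeR called miR-3065-5p (log2 fold change -2.19, SE 0.50, adjusted p = 2.88e-05) and miR-3065-3p (-2.54, SE 0.51, adjusted p = 1.91e-06) lower in brain. Of the 7 other products of these hairpins, 5 were tested, 3 were called lower in brain and none higher, beside 73.4% of all miRNAs called in either direction and 37.8% higher.

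**Figure D2:**
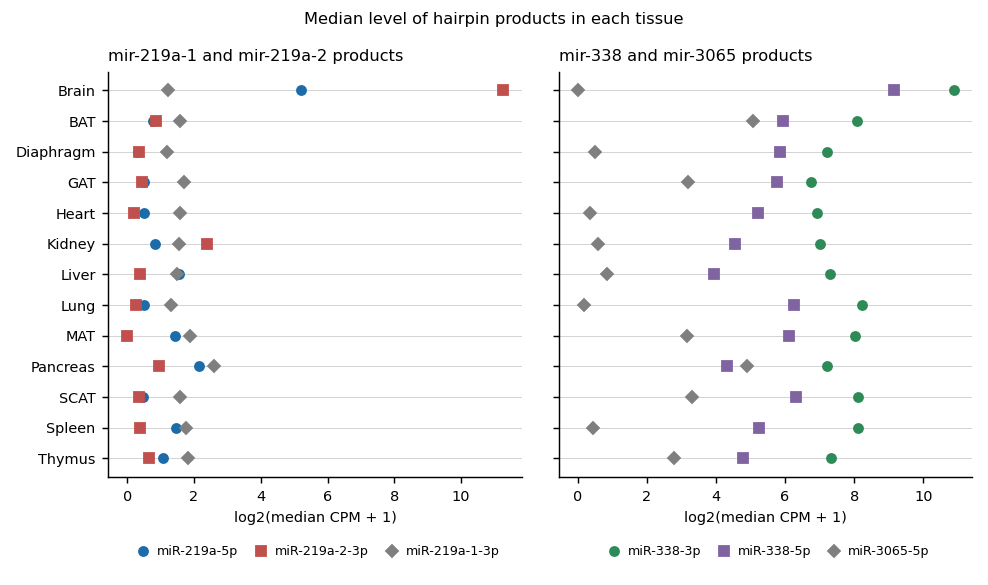
Median level as log2(median CPM + 1) of the products of the mir-219a hairpins (left) and of the mir-338 and mir-3065 site (right) in each of the 13 tissues. miR-219a-2-3p and both miR-338 strands are highest in brain, whereas grey diamonds for miR-3065-5p are highest in BAT (32.4 CPM) and pancreas (28.8 CPM) and at 0 in brain.

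Whether flight changed these miRNAs in brain was asked within LAR and within TERM by the comparison of FL with HGC, and the effect of housing by HGC with VGC. Age was not a term in these fits. In TERM the arms held different shares of mice of 8 months, so age was not separated from arm. None of the 4 miRNAs passed the adjusted p threshold of 0.05 in any of these comparisons. The percentage called over all 1300 miRNAs tested in LAR and 1295 in TERM was also 0 for every pair of arms. By unadjusted p under 0.05 edgeR counted 20 (FL vs. HGC), 183 (FL vs. VGC) and 110 (HGC vs. VGC) miRNAs in LAR, and 38, 93 and 69 in TERM. DESeq2 called 11 in FL vs. VGC of TERM and 0 in the other 5.

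In LAR, the miR-219a-2-3p level was 2400, 2368, 3258 and 3410 CPM in the FL mice 1, 5, 13 and 17. It was 2975, 3786, 1451 and 2772 CPM in HGC and 2840, 891, 2446 and 4382 CPM in VGC, in mice of the same numbers. The groups overlapped throughout, and the VGC group held both the lowest and the highest brain library. The log2 fold change was -0.05 (SE 0.46) for FL vs. HGC and -0.26 (SE 0.46) for FL vs. VGC. These signs are those after TMM scaling and opposite to the CPM means of 2859 in FL, 2746 in HGC and 2640 in VGC, and without TMM factors FL vs. HGC was 0.058. miR-219a-5p, the other strand, was at 40.6, 47.2, 86.0 and 44.6 CPM in FL, 106, 35.7, 55.9 and 23.9 CPM in HGC, and 26.0, 10.4, 25.9 and 19.4 CPM in VGC. Every FL library was above every VGC library, a separation shown by 6.00% of the 1300 miRNAs in this direction, while FL and HGC overlapped. On the log2 scale the fold change was 1.02 (SE 0.46, adjusted p = 0.343 by edgeR) for FL vs. VGC, 1.02 (SE 0.46, adjusted p = 0.557) for HGC vs. VGC and -0.01 (SE 0.46) for FL vs. HGC.

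miR-338-3p, known to act together with miR-219 on precursor genes, was at 2872, 3510, 6059 and 592 CPM in the FL mice of LAR. It was at 4984, 2371, 3513 and 1526 CPM in HGC and 758, 933, 1538 and 938 CPM in VGC. The FL group spanned the whole brain range of this miRNA, and all but 1 library of FL and 1 of HGC were above the VGC group, whereas 2.62% of the 1300 miRNAs had every HGC library above every VGC library. For this miRNA the log2 fold change was 1.23 (SE 0.52, adjusted p = 0.334) for FL vs. VGC, 1.19 (SE 0.52, adjusted p = 0.557) for HGC vs. VGC and 0.03 (SE 0.51) for FL vs. HGC. miR-338-5p was at 475, 465, 446 and 1188 CPM in FL, 475, 696, 865 and 577 CPM in HGC, and 829, 144, 397 and 839 CPM in VGC. The library of FL mouse 17 was lowest for miR-338-3p and highest for miR-338-5p within its group, and the groups overlapped for miR-338-5p. Its log2 fold change was -0.08 (SE 0.53) for FL vs. HGC and -0.14 (SE 0.53) for FL vs. VGC, where the CPM means were 643, 653 and 552 in FL, HGC and VGC, so the sign of the latter is also opposite to the means.

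VGC LAR mouse 5, 1 of the 2 brain libraries from pools with many unlike profiles, was lowest in brain for miR-219a-2-3p and miR-338-5p. Its summed level of 8 neuronal miRNAs was also the lowest in brain, at 85768 CPM against a median of 245284 CPM, and the part of either in the arm differences was not tested. Without it the FL vs. VGC log2 fold change in LAR was 0.81 (SE 0.45, adjusted p = 0.628) for miR-219a-5p and 1.21 (SE 0.53, adjusted p = 0.628) for miR-338-3p. The neuronal list had medians of 301259 CPM in FL, 278491 in HGC and 204789 in VGC of LAR. In TERM the medians were 201493 CPM in FL, 229306 in HGC and 253305 in VGC. By medians, miR-338-3p had the same order of the arms as this list in LAR and the opposite order in TERM.

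**Figure D3:**
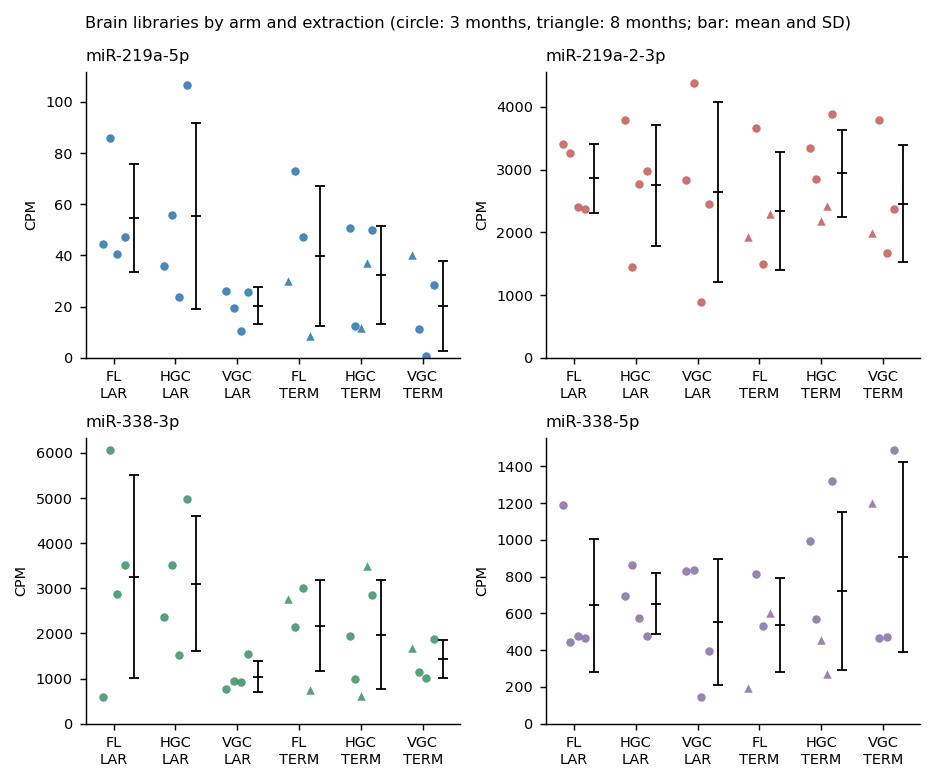
CPM of the 4 miRNAs in each brain library by arm, for LAR and TERM, with circles for mice of 3 months, triangles for 8 months, and the mean and SD beside them. FL and VGC of LAR do not overlap for miR-219a-5p (lowest FL library 40.6 CPM, highest VGC library 26.0 CPM), and every other FL group overlaps with its controls.

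In TERM, miR-219a-2-3p was at 3669, 1494, 1927 and 2296 CPM in FL, 3348, 3888, 2857, 2423 and 2174 CPM in HGC, and 3789, 1674, 2371 and 1995 CPM in VGC. The log2 fold change was -0.42 (SE 0.38) for FL vs. HGC and -0.10 (SE 0.39) for FL vs. VGC. miR-219a-5p was at 73.2, 47.3, 29.9 and 8.38 CPM in FL, 50.8, 49.8, 12.6, 37.0 and 11.6 CPM in HGC, and 11.4, 0.835, 28.3 and 40.2 CPM in VGC. The groups overlapped for both strands, where 0.0772% of the 1295 miRNAs had every FL library above HGC and 1.08% above VGC, and the lowest value of miR-219a-5p was that of the library with 0.598 M miRNA counts. Its log2 fold change was 0.18 (SE 0.68) for FL vs. HGC and 0.89 (SE 0.72) for FL vs. VGC.

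The TERM levels of miR-338-3p were 2153, 3011, 2757 and 752 CPM in FL, 1945, 2848, 982, 3484 and 620 CPM in HGC, and 1139, 1023, 1878 and 1683 CPM in VGC. Those of miR-338-5p were 816, 534, 195 and 601 CPM in FL, 995, 1323, 568, 269 and 453 CPM in HGC, and 469, 470, 1489 and 1201 CPM in VGC. All groups overlapped here as well, the VGC libraries of miR-338-3p lying inside the range of FL. The log2 fold change of miR-338-3p was 0.02 (SE 0.49) for FL vs. HGC, 0.54 (SE 0.52) for FL vs. VGC and 0.52 (SE 0.50) for HGC vs. VGC. That of miR-338-5p was -0.46 (SE 0.49), -0.81 (SE 0.52) and -0.35 (SE 0.49).

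Age could be compared in brain only in TERM, over 8 mice of 3 months and 5 of 8 months. miR-219a-2-3p had 1494 to 3888 CPM (median 3102) at 3 months, and 1927, 2423, 2174, 2296 and 1995 CPM at 8 months. The older mice thus lay within the range of the younger ones, as they did for miR-219a-5p (8.38 to 40.2 against 0.835 to 73.2 CPM), and 0.0772% of the 1295 miRNAs did not overlap between the ages. miR-338-3p ranged over 620 to 3484 CPM at 8 months and 982 to 3011 CPM at 3 months, and miR-338-5p over 195 to 1201 and 469 to 1489 CPM. None of the 4 was called, with 1.85% of 1295 miRNAs called, and the log2 fold changes of 8 against 3 months were -0.26 (SE 0.41) for miR-219a-2-3p, -0.08 (SE 0.53) for miR-219a-5p, 0.08 (SE 0.42) for miR-338-3p and -0.39 (SE 0.45) for miR-338-5p. The sign for miR-338-3p is opposite to its CPM means, 1859 at 8 months and 1872 at 3 months, and its value was -0.048 without TMM factors. The difference between the ages in FL vs. HGC was also not called for any, with 0 called over all miRNAs by edgeR and DESeq2 and 27 and 6 at an unadjusted p under 0.05. It was 0.31 (SE 0.94) for miR-219a-2-3p and -1.17 (SE 1.20) for miR-219a-5p, standard errors that leave wide intervals.

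Of the 5 other products of these hairpins that were tested, 1 was called with age, miR-3065-5p, the antisense of miR-338-3p (log2 fold change 4.60, SE 1.02, adjusted p = 0.00115 by edgeR). DESeq2 called 0 of the 1295 miRNAs with age. It was at 16.3, 11.6, 0.213, 0 and 0 CPM at 8 months, in FL mouse 17, HGC mouse 18, VGC mouse 18, FL mouse 18 and HGC mouse 17, and at 0 to 0.333 CPM at 3 months. The ages overlapped except for the first 2 libraries, which also had the lowest neuronal list of TERM, at 140681 and 142346 CPM. The same libraries had the highest miR-375-3p of TERM, a miRNA of pancreatic islets, at 7542 and 1126 CPM, where the others had at most 618 CPM. The part of other tissue in the miR-3065-5p levels was not tested.

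LAR and TERM brains of 3 months differ in days in flight, killing, freezing and dissection, which cannot be told apart. miR-219a-2-3p had a median of 2806 CPM over the 12 LAR libraries (891 to 4382) and 3102 CPM over the 8 TERM libraries (1494 to 3888), and miR-338-3p had 1955 CPM (592 to 6059) and 1911 CPM (982 to 3011). The ranges overlapped for all 4 miRNAs. The log2 fold change of LAR against TERM was 0.07 (SE 0.27, adjusted p = 0.963 by edgeR, or -0.061 without TMM factors) for miR-219a-2-3p, 0.47 (SE 0.38, adjusted p = 0.850) for miR-219a-5p, 0.27 (SE 0.31, adjusted p = 0.925) for miR-338-3p and -0.29 (SE 0.32, adjusted p = 0.922) for miR-338-5p. In this comparison 1.60% of 1377 miRNAs were called. The difference of FL vs. HGC between LAR and TERM was 0.53 (SE 0.70), -0.61 (SE 0.97), -0.32 (SE 0.79) and 0.54 (SE 0.85) in the same order, with 0 called over all miRNAs by edgeR and DESeq2 and 33 and 24 at an unadjusted p under 0.05.

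Ratios of strands within a library need no scaling by depth, and varied more than 10-fold between brains. miR-338-3p per miR-338-5p had a median of 2.64, was lowest in FL LAR mouse 17 (0.499) and highest in FL TERM mouse 17 (14.1), and was above 1 in 23 of 25 libraries. In FL of LAR it ran from 0.499 to 13.6 and in HGC from 2.65 to 10.5, inside the FL range. miR-219a-5p per miR-219a-2-3p was at most 0.0386, so the 3p strand was the more abundant in each brain. None of 9 permutation tests, of LAR against TERM and of FL vs. HGC on 3 ratios, passed (smallest adjusted p = 0.851). Exact permutation tests of 4 against 4 libraries cannot give a p below 0.0286, and FL vs. HGC of LAR gave 0.943 or more. With 4 against 5 libraries in TERM the floor of the exact permutation test was 0.00794, and FL vs. HGC gave 0.468 to 0.937. Adjusted over the 9 tests, neither floor would pass on its own.

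Over brain libraries, miR-219a-5p and miR-338-3p were correlated. With the mean of LAR or TERM subtracted, miR-338-3p was at rank 81 of 439 miRNAs by r with miR-219a-5p (0.678), so many others were closer to it. Pearson's r of log2 CPM was 0.74 over the 12 LAR libraries (permutation p = 0.00488, adjusted p = 0.0377) and 0.68 over the 13 TERM libraries (permutation p = 0.00628, adjusted p = 0.0377). Spearman's rho was 0.73 (permutation p = 0.00952) and 0.71 (permutation p = 0.00878), with an adjusted p of 0.0571 for both by permutation. Without the 2 libraries farthest from the median of miR-219a-5p, r was 0.70 and 0.79. After the mean of each arm was subtracted r was 0.56 and 0.66, with adjusted p of 0.225 and 0.138 by permutation, so the call did not hold within arms. The strands of 1 hairpin did not show this relation, as r of miR-338-3p and miR-338-5p was -0.17 and -0.00, and that of miR-219a-5p and miR-219a-2-3p was 0.35 and 0.35. miR-219a-2-3p and miR-338-5p had r of 0.66 in LAR (permutation p = 0.0308, adjusted p = 0.123) and 0.36 in TERM (permutation p = 0.232). The p-values were adjusted over 12 relations, and whether these correlations differ from each other was not tested.

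**Figure D4:**
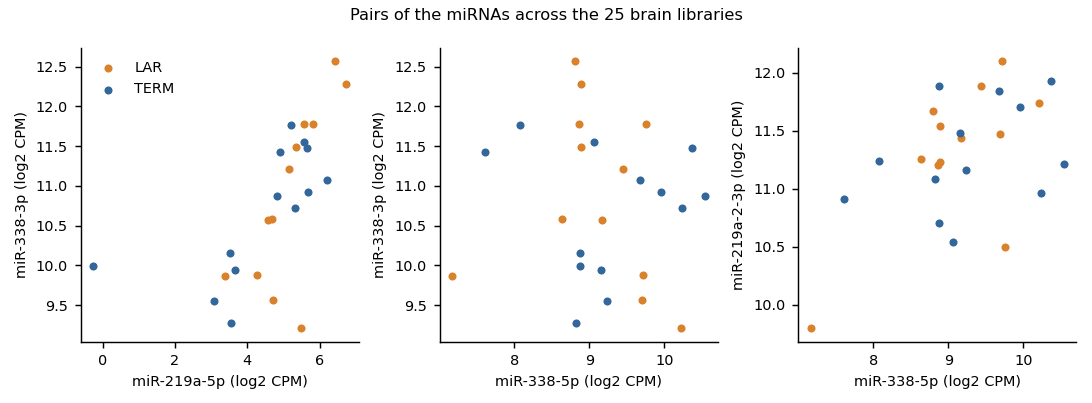
Pairs of miRNAs as log2 CPM in the 25 brain libraries, in orange for LAR and blue for TERM. miR-219a-5p and miR-338-3p rise together (r of 0.74 and 0.68), while the 2 strands of mir-338 do not (r of -0.17 and -0.00).

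The miRNAs with the most similar pattern were sought among 439 with a brain median of at least 10 CPM, as a description over points that share libraries and depth. Over 26 medians of tissue and extraction, miR-219a-2-3p was closest to miR-346-5p (r = 0.984), miR-873a-3p (0.979) and miR-124-5p (0.979), the last from a hairpin of neurons. miR-219a-5p was closest to miR-544-3p (0.942), miR-384-3p (0.941) and miR-384-5p (0.936). miR-338-3p was closest to miR-135b-5p (0.890), miR-1298-3p (0.876) and miR-764-3p (0.876), and miR-338-5p to miR-491-5p (0.931), miR-760-3p (0.913) and miR-485-5p (0.891). None of the 4 was among the 3 closest of another, and the partner strands had r of 0.826 for mir-338 and 0.873 for miR-219a-5p with miR-219a-2-3p. Within brain, with the mean of LAR or TERM subtracted, miR-338-3p was closest to miR-540-5p (0.923) and miR-337-3p (0.918) and miR-219a-5p to miR-879-5p (0.910) and miR-543-3p (0.905). miR-219a-2-3p was closest to miR-328-3p (0.706) and miR-541-5p (0.686), and miR-338-5p to miR-770-3p (0.832) and miR-138-2-3p (0.823).

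Other miRNAs known from oligodendrocytes and their precursors were listed to see whether they followed. Of the 12 on the list, 3 were called higher and 8 lower in brain, beside 37.8% of all miRNAs called higher and 73.4% in either direction. Their median log2 fold change was -2.55, and that of all tested miRNAs -0.14. The higher ones were miR-138-5p, which is known to extend the early stage of differentiation, with a brain median of 8665 CPM against 84.8 CPM elsewhere (log2 fold change 5.68, SE 0.14), miR-212-3p (5.05, SE 0.11) and miR-7a-5p (1.75, SE 0.20). miR-23a-3p, known to promote myelination, was lower in brain, at 2499 CPM against 10417 CPM elsewhere (log2 fold change -2.11, SE 0.12), as was miR-27a-3p (-2.62, SE 0.15). Among the 8 lower ones were miR-155-5p (-4.21, SE 0.36) and miR-146a-5p (-3.31, SE 0.34), which are known as miRNAs of immune cells. All 8 of the 8 neuronal miRNAs were called higher in brain, by log2 fold changes of 5.62 to 8.54. In the brain arms none of either list was called in LAR or TERM. With age, 1 of the 12 was called higher at 8 months (miR-155-5p, log2 fold change 1.71, SE 0.51, adjusted p = 0.0491 by edgeR), beside 1.85% of all miRNAs by edgeR and 0 by DESeq2. The 4 miRNAs listed for white blood cells, none of them called, had a median log2 fold change of 1.02 with age, and their part in that call was not tested.

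Outside brain, high miR-219a-2-3p came with high neuronal miRNAs. In 18 libraries of 9 tissues it was at 100 CPM or more, a threshold chosen after the values were seen, and these held 6 FL, 5 HGC and 7 VGC libraries. The highest were pancreas FL LAR mouse 3 with 1475 CPM and BAT HGC LAR mouse 12 with 926 CPM, both above the lowest brain library, and diaphragm HGC TERM mouse 3 with 891 CPM. The summed neuronal list was 6535 to 99532 CPM (median 20291) in the 18, 36.9 to 10602 CPM (median 367) in the other 643 and 85768 to 339770 CPM (median 245284) in brain. For each 1000 CPM of that list the 18 held 7.95 to 21.5 CPM of miR-219a-2-3p (median 13.1), and brain held 4.76 to 19.2 (median 11.0). Of the 18, 14 were closest to the profile of another tissue, 10 of them to brain, and 15 were either of these or in the 11 pools. Kidney HGC TERM mouse 11, liver FL TERM mouse 1 and spleen VGC LAR mouse 16 were the other 3, with 148, 134 and 101 CPM. The part of the shared pools in these values was not tested.

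**Figure D5:**
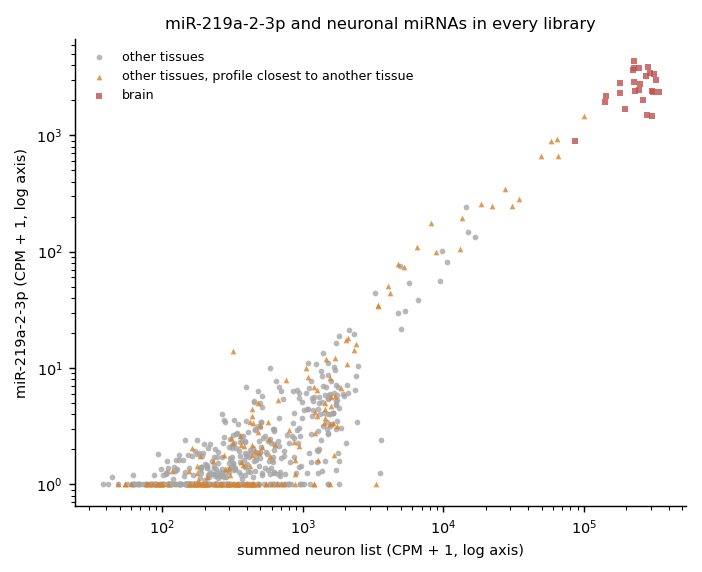
miR-219a-2-3p against the summed level of 8 neuronal miRNAs in all 686 libraries, both as CPM + 1 on log axes, with squares for brain, triangles for other libraries closest to another tissue and circles for the rest. Libraries outside brain with 100 CPM or more of miR-219a-2-3p also have 6535 CPM or more of the neuronal list.

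Arm differences were also looked for outside brain. Over 24 tissue and extraction groups and the 4 miRNAs, edgeR called 2 of 96 pairs between FL and HGC. It called 3 between FL and VGC and 1 between HGC and VGC, and all 6 were miR-219a-2-3p. Over all miRNAs these comparisons called 0.741%, 0.551% and 0.174%. edgeR called the 2 miR-338 strands and miR-219a-5p in none of them. DESeq2 called miR-338-5p lower in FL than in HGC in SCAT LAR (log2 fold change -0.92, SE 0.27, adjusted p = 0.0158). It also called this strand in FL vs. VGC of pancreas LAR (1.90, SE 0.57, adjusted p = 0.0290 by DESeq2).

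BAT LAR in FL vs. HGC had the largest of these (log2 fold change -7.23, SE 1.73, adjusted p = 0.0215 by edgeR, beside 4.52% called). Its HGC libraries had a median of 0.892 CPM, a second highest of 1.06 CPM and a highest of 926 CPM in mouse 12, and its FL libraries had at most 1.53 CPM. The groups therefore overlapped except for that mouse, without which the log2 fold change was -0.16 (adjusted p = 0.986). Lung LAR in HGC vs. VGC (-5.82, SE 1.37, adjusted p = 0.0405, beside 0.377% called) had a VGC median of 0.160 CPM, a second highest of 0.790 CPM and a highest of 195 CPM in mouse 3. Without that mouse it was 0.55 (adjusted p = 0.971). Pancreas LAR in FL vs. VGC (6.70, SE 1.61, adjusted p = 0.0239, beside 1.96% called) had 79.8 and 1475 CPM in FL mice 16 and 3, over a median of 0.309 CPM. The VGC libraries had at most 3.46 CPM, and without mouse 3 the log2 fold change was 2.71 (adjusted p = 0.403).

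In liver, FL libraries held the high values in both groups. Liver LAR in FL vs. HGC (4.45, SE 1.30, adjusted p = 0.0441, beside 3.81% called) had 54.5 and 37.7 CPM in FL mice 16 and 1, an FL median of 0.424 CPM and at most 1.25 CPM in HGC. The call was lost in 15 of 29 fits that left out 1 library, and without FL mouse 16 the log2 fold change was 3.63 (adjusted p = 0.142). Liver TERM in FL vs. VGC (5.68, SE 1.28, adjusted p = 0.0179, beside 4.32% called) had 134 and 28.5 CPM in FL mice 1 and 16, an FL median of 0.545 CPM and at most 0.732 CPM in VGC. Without mouse 1 it was 3.57 (adjusted p = 0.0602). These 4 liver libraries matched the liver profile, and their neuronal list was at 4754 to 16689 CPM. Heart TERM in FL vs. VGC (5.64, SE 1.29, adjusted p = 0.0259, beside 1.60% called) had 104 and 49.8 CPM in FL mice 1 and 4, a median of 0.160 CPM and at most 2.89 CPM in VGC, and without mouse 1 it was 4.63 (adjusted p = 0.0800). These FL libraries were closest to brain and to thymus, and without the libraries closest to another tissue the log2 fold change was 0.77 (adjusted p = 1), or 3.09 (adjusted p = 0.253) without the 11 pools. None of the 6 calls held in either of these settings. Without the libraries closest to another tissue, edgeR called miR-219a-2-3p in MAT LAR for HGC vs. VGC (log2 fold change -6.40). MAT kept the fewest libraries of any tissue there, among them VGC LAR mouse 1 with 74.3 CPM. The liver values stayed near their size without the libraries closest to another tissue, at 4.62 (adjusted p = 0.0527) in LAR and 5.54 (adjusted p = 0.0520) in TERM. Over all other settings they went as low as 0.092 in LAR and 0.071 in TERM.

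With age, none of 92 pairs of tissue group and miRNA outside brain was called by edgeR, beside 0.666% of all tests, and 10 had an unadjusted p under 0.05. DESeq2 called 2. These were miR-338-5p in thymus TERM (log2 fold change 1.37, adjusted p = 0.0198) and miR-338-3p in MAT TERM (-0.73, adjusted p = 0.0287). In thymus LAR, edgeR called miR-338-5p higher at 8 months without libraries closest to another tissue (0.91, adjusted p = 0.0199). Without the 11 pools this value was 0.90 (adjusted p = 0.0305 by edgeR). The value of miR-219a-2-3p in BAT TERM was -3.88 without the pools. The difference of FL vs. HGC between the ages was called in 2 of 92 pairs, beside 0.466%, both miR-219a-2-3p. In pancreas LAR (14.37, SE 2.83, adjusted p = 0.00335, beside 1.26% called) the highest library was 1475 CPM in FL at 8 months and 241 CPM in HGC at 3 months, with medians of 1.66 and 9.50 CPM. The FL group of 3 months and the HGC group of 8 months had at most 3.07 and 2.37 CPM. In BAT TERM (-13.79, SE 3.02, adjusted p = 0.00806, beside 6.02% called) the highest were 665 CPM in FL at 3 months and 282 CPM in HGC at 8 months, over medians of 4.30 and 2.50 CPM. Without HGC mouse 11, which had the 282 CPM, the BAT value was -9.39 (adjusted p = 0.0599 by edgeR). Without the 11 pools the pancreas value was -0.72, and without the libraries closest to another tissue the BAT value was 2.26, so each changed sign. In the other of these settings the calls held, at 9.62 (adjusted p = 0.00942 by edgeR) in pancreas without the libraries closest to another tissue and -8.19 (adjusted p = 8.89e-11) in BAT without the pools.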

How the data were processed

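Small RNA was sequenced from 13 tissues of 83 mice. The authors mapped reads and counted RNA classes with miRMaster against miRBase and GRCm39. The deposited miRNA table holds estimated counts per library, since 0.790% of its values carry a fraction, and the deposited tables of other RNA classes hold counts, in which blank cells were read as 0. Tables of circRNA and scaRNA were not used. Reads, not molecules, were counted, so floors cover counting error only.

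CPM was computed over the miRNA counts of a library, and rpmm over the counts of 7 RNA classes. Values were rounded for edgeR 4.0.16 and DESeq2 1.42.0 (R 4.3.3, limma 3.58.1). miRNAs with at least 5 counts in 10% of the libraries of any group of the same extraction, over all tissues, were tested by edgeR's quasi-likelihood test with TMM factors and Benjamini-Hochberg adjustment at 0.05. Ratios were tested by exact two-sided permutation over all splits, at most 125970. Relations were tested by two-sided permutation with 100000 resamples (scipy 1.17.1). Each library was compared by correlation with tissue profiles over 723 miRNAs at more than 2-fold the median tissue, and no library was relabelled. Pools are those the study lists, 44 on 8 plates. Sequences are from RefSeq on GRCm38.p6 and coordinates were not converted. The fits were tested on simulated data.

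The 4 miRNAs, the other products of their hairpins and the lists, taken from general knowledge, were chosen with earlier results of these data known. Named miRNAs are the 4 in every comparison, those products, the lists, and the 3 miRNAs most alike to each by Pearson's r of log2(CPM + 1).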

Additional observations from a re-analysis of the deposited data

Results flagged for a closer look

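Each group of 4 to 10 libraries was looked at for each miRNA in brain and for miR-219a-2-3p in the other tissue groups with a call. Of these 45 combinations of group and miRNA, 16 held a library far from the others. Chance gives about 1 in 20 in groups not chosen by their values, but the groups outside brain were taken for their calls, which rest on single high libraries in part, so their number is not read against it. In brain 2 were found, both in 1 group, with FL LAR mouse 13 for miR-219a-5p (86.0 CPM) and FL LAR mouse 17 for miR-338-5p (1188 CPM).

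The other 14 were high values of miR-219a-2-3p outside brain. In BAT they were HGC LAR mouse 12 (926 CPM), VGC LAR mouse 3 (108 CPM), FL TERM mouse 4 (665 CPM), HGC TERM mouse 11 (282 CPM) and VGC TERM mouse 1 (248 CPM). In pancreas they were FL LAR mouse 3 (1475 CPM) and HGC LAR mouse 14 (241 CPM), and in lung VGC LAR mouse 3 (195 CPM) and FL LAR mouse 5 (1.28 CPM). In liver they were FL TERM mouse 1 (134 CPM), VGC LAR mouse 5 (12.4 CPM) and HGC TERM mouse 14 (4.17 CPM), and in heart FL TERM mouse 1 (104 CPM) and VGC TERM mouse 12 (2.89 CPM). The libraries over 100 CPM had 6535 CPM or more of the neuronal list.

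The FL vs. HGC difference of miR-219a-2-3p differed between 3 and 8 months in pancreas LAR and BAT TERM. The interaction terms were 14.37 and -13.79 on the log2 scale. The highest libraries in these fits were 1475 CPM in pancreas and 665 CPM in BAT. Each term changed sign in another setting, to -0.72 in pancreas without the 11 pools and 2.26 in BAT without libraries closest to another tissue.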

How the results depend on the processing

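Over 72 results and 1515 values under other settings, 1327 kept direction and side of the threshold. The 4 differences of brain from the other tissues were called under every setting run. No brain arm value below was called under any of them, and the cause of each change was not tested. In FL vs. HGC of LAR, miR-219a-5p was 0.013 by DESeq2, 0.035 without a filter on low counts and 0.19 by the Wilcoxon test, miR-219a-2-3p was 0.058 without TMM factors, and miR-338-3p was -0.33 and -0.29 by limma with 1 and 10 added. In FL vs. HGC of TERM, limma gave -0.12 and -0.044 for miR-219a-5p and -0.14 and -0.14 for miR-338-3p, the Wilcoxon test -0.20 for miR-219a-5p, and miR-338-3p was -0.073 without the filter and -0.12 without the pools. LAR against TERM was -0.061 for miR-219a-2-3p without TMM factors, and 0.14 and 0.13 for miR-338-5p by limma. Age gave 0.043 and 0.013 for miR-219a-5p by limma, and -0.048 and -0.29 for miR-338-3p without TMM factors and without the pools.

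Replicate numbers are shared by different animals, and same-numbered libraries had a median correlation of -0.17 in LAR and -0.11 in TERM. With the replicate block, FL vs. HGC of LAR was 0.076 for miR-219a-5p and -0.19 for miR-338-3p, and HGC vs. VGC of TERM was -0.042 for miR-338-3p.

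Outside brain, miR-219a-2-3p without the pools was 0.064 in BAT LAR, 0.80 in lung LAR, -1.71 in pancreas LAR for FL vs. VGC and -0.72 for age by flight. Without libraries closest to another tissue it was 0.42 in lung LAR and 2.26 in BAT TERM for age by flight. The Wilcoxon test gave 0.0064 in lung and -0.040 in pancreas. Against 2 calls in FL vs. HGC, 0 were made by the Wilcoxon test, by limma with either addition, without those libraries or without the pools, and 1 without the filter. Against 0 calls with age, DESeq2 made 2, a filter within the tissue 1, no filter 1, leaving out those libraries 2 and the pools 4. Against 2 calls of age by flight, limma made 0 and 0, and leaving out those libraries or the pools 1 each. Age and flight in MAT LAR could not be fitted without those libraries. In brain, 24 miRNAs were called with age by edgeR and 0 by DESeq2.

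For relations, r of miR-219a-5p and miR-338-3p after the arm mean was 0.56 in LAR and 0.66 in TERM, that of miR-219a-2-3p and miR-338-3p in LAR was -0.14, and that of the mir-338 strands in TERM was 0.088, or 0.34 on rpmm. miR-219a-2-3p and miR-338-5p in LAR passed on rpmm (0.75).

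Leaving out each library in turn, chosen outside brain after seeing the data, gave -6.30 to 0.55 in lung LAR. FL vs. HGC of LAR was -0.22 to 0.47 for miR-219a-5p, -0.28 to 0.16 for miR-219a-2-3p, -0.39 to 0.37 for miR-338-3p and -0.65 to 0.16 for miR-338-5p, and of TERM -0.19 to 0.50 for miR-219a-5p and -0.22 to 0.46 for miR-338-3p. LAR against TERM was -0.081 to 0.16 for miR-219a-2-3p. Age was -0.90 to 0.30 for miR-219a-5p and -0.54 to 0.34 for miR-338-3p, and age by flight -2.31 to 0.0098, -0.24 to 0.88, -1.97 to 1.05 and -0.42 to 1.30 for miR-219a-5p, miR-219a-2-3p, miR-338-3p and miR-338-5p. Flight by extraction was -0.85 to 0.017 for miR-338-3p and -0.012 to 0.73 for miR-338-5p. Log2 ratios in FL vs. HGC were -0.35 to 0.37 for miR-219a-5p to miR-219a-2-3p in LAR, -0.27 to 0.56 in LAR and -0.40 to 0.15 in TERM for miR-219a-5p to miR-338-3p, and -0.64 to 0.95 for the mir-338 strands in LAR.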

Other observations

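The highest miR-219a-5p outside brain was in pancreas HGC TERM mouse 5, at 49.0 CPM from 38.5 counts, and mouse 4 of that group had 29.8 CPM. Both libraries matched the pancreas profile. The 3 brain libraries with the lowest neuronal list, VGC LAR mouse 5, FL TERM mouse 17 and HGC TERM mouse 18, had the 3 highest levels of miR-3065-5p in brain, at 4.41, 16.3 and 11.6 CPM. They also had the 3 highest levels there of miR-375-3p, a miRNA of pancreatic islets, at 4518, 7542 and 1126 CPM, where every other brain library had at most 618 CPM, and the part of other tissue in these values was not tested.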
